A study of Mus musculus with 16 samples.

Results

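The transcripts of 9 genes of JAK-STAT signalling were followed in mouse macrophages given lipopolysaccharide (LPS, a glycolipid of bacterial cell walls). They are 6 STAT transcription factor genes (Stat2, Stat3, Stat4, Stat5a, Stat5b and Stat6) and 3 JAK kinase genes (Jak1, Jak2 and Tyk2), taken by name from a table of read counts for 27179 genes. All libraries come from the line iBMDM MyD88-AGF, immortalised macrophages derived from mouse bone marrow, with genotype MyD88-AGF WT in every group. Responders are cells given 10 ng/mL LPS for 6 h and sorted for high side scatter, the light that internal structures of a cell deflect. Bystanders had the same LPS treatment and were sorted for low side scatter. The LPS pool had the same treatment and passed the sorter ungated, after the sorted cells had been collected. Untreated cells also passed ungated. Each group had 4 libraries, 16 in all, from 1000000 collected cells each. The labels do not say that replicates were separate cultures, so the spread behind every p-value is that between libraries and may be technical.

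JAKs are tyrosine kinases that sit on the inner tails of cytokine and interferon receptors. When a ligand brings receptor chains together, the JAKs phosphorylate the receptor, STAT proteins dock there, are phosphorylated in turn, pair up and enter the nucleus to act on promoters. Macrophages that sense LPS through TLR4 secrete interferon beta and cytokines, which act back on the same and on neighbouring cells through these kinases. JAK1 and TYK2 serve the interferon alpha/beta receptor, whose main transcription factor contains STAT2 and IRF9, while JAK2 serves the interferon gamma receptor together with JAK1, and the receptors of GM-CSF and related cytokines.

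Library totals ran from 15287344 to 25193162 counts, and 12589 genes passed the low-count filter, 8 of the 9 members among them. All 10 macrophage markers, from Adgre1 and Csf1r to Cd68 and Lyz2, were above a mean of 1 CPM (counts in 1000000 counts of the library total after TMM scaling). Of 16 neural markers 15 had reads and Mobp had 0. Their summed level was 45.8 to 67.0 CPM in responders, 55.7 to 73.9 in bystanders, 51.2 to 77.6 in the LPS pool and 91.8 to 118 in untreated cells. The neuronal genes Dcx, Gap43, Stmn2, Mapt and Syt1 together reached 10.7 to 21.1 CPM in 6 libraries (responder replicate 1, bystander replicates 3 and 4, LPS pool replicates 3 and 4, untreated replicate 1) and at most 0.635 CPM in the other 10. Those 10 are called the 10 libraries without neural transcripts below. The name refers to these neuronal genes only, as other neural markers had reads in every library. Calls lost in those 10 libraries alone are named beside the result, and the part of other cells' RNA was not tested further. Of 8 neutrophil, 7 dendritic cell, 10 lymphocyte and 6 fibroblast markers, 0, 1 (Xcr1), 1 (Il7r) and 3 collagen genes exceeded a mean of 1 CPM, and Ly6g, Siglech and Cd3e had 0 reads. Il7r carried most of a lymphocyte sum of 51.4 to 58.9 CPM in responders, 121 to 128 in bystanders, 49.4 to 55.1 in the pool and 61.1 to 65.3 in untreated cells. Dendritic cell markers summed to 4.29 to 5.38 CPM in responders, 7.14 to 8.53 in bystanders, 3.37 to 5.42 in the pool and 0.498 to 0.926 in untreated cells. Fibroblast markers summed to 8.69 to 30.3 CPM in responders, 1.94 to 76.9 in bystanders, 3.18 to 106 in the pool and 7.02 to 30.8 in untreated cells. Neutrophil markers stayed at or below 2.15 CPM in sum. Without TMM scaling (library totals alone) the all-gene median moved to -0.20 on the log2 scale for responders against bystanders, -0.36 for the LPS pool, -0.41 for responders and -0.18 for bystanders, each against untreated cells, -0.05 for responders against the pool and 0.14 for bystanders against the pool.

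Of the 8 tested members, 5 were higher in the LPS pool than in untreated cells and 3 lower. In the LPS pool against untreated cells, 71.9% of all tested genes passed edgeR's quasi-likelihood test at adjusted p under 0.05, 34.1% higher and 37.8% lower. Of all calls 47.4% were higher, and 21.6% with library totals alone. The 8 members had a median of 0.89 on the log2 scale, and all genes a median of -0.03. In bulk RNA, fewer cells with a transcript and less of it per cell cannot be told apart. Stat2 and Jak2 moved most, followed by Tyk2 and Stat3, all at least 2-fold higher, which held for 9.72% of all genes. Jak1 was higher by a smaller amount, and Stat5a, Stat5b and Stat6 were slightly lower.

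Stat2 encodes the STAT that works almost entirely in interferon signalling. Its level was 346, 357, 349 and 329.7 CPM in the 4 LPS pool libraries, against 31.8, 33.2, 34.3 and 32.8 CPM in untreated libraries. Every pool library stood far above every untreated one. The fold was 10.5 (log2 3.39 ± 0.029 SE, adjusted p = 9.22e-69, edgeR), rank 246 from the highest among 12589 genes. Stat2 lies on the plus strand of chromosome 10 (128270498 to 128292853, GRCm38), and its start lies inside the span of Apof, an apolipoprotein gene with 222 reads in all 16 libraries. Whether counting used strand is not given in the sources used here, so reads in such overlaps cannot be assigned to a gene with certainty.

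The bases before the transcript start of 3 members are shown because Stat2 and Jak2 ordered the 4 groups in the same way while Tyk2 differed most between the gates. Each is the RefSeq window of 250 bases before the start on GRCm38.p6, 5′ to 3′ on the gene's strand, with matches to searched motifs in capitals. The start used for Tyk2 is RefSeq's and lies inside the gene span given below, so that part of its window overlaps the span. For all 3 windows, the bases soon after the RefSeq start were not found unbroken in a protein-coding transcript of the gene in the GENCODE annotation. Distances below are thus from RefSeq's start only.
Stat2, chr10:128270248-128270497, plus strand: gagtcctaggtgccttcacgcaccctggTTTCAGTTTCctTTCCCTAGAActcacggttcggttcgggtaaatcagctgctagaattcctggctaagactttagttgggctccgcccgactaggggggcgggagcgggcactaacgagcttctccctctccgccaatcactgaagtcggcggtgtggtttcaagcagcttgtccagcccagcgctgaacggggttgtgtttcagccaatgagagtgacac
Jak2, chr19:29251553-29251802, plus strand: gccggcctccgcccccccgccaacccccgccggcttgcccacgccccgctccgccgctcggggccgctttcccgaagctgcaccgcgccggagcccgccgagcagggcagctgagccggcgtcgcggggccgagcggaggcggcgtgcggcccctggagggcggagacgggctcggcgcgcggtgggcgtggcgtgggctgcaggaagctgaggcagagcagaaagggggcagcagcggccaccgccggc
Tyk2, chr9:21131276-21131525, minus strand: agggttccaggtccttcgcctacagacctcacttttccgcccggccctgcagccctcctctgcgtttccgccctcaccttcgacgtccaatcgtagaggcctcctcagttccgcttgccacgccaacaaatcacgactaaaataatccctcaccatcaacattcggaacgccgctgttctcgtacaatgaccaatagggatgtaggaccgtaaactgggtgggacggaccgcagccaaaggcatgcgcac
4 motifs were searched on both strands: the interferon response element (GAAA, any 2 bases, GAAA), the GAS element TTCNNNGAA that STAT dimers bind, the STAT6-type element with 4 bases between TTC and GAA, and an NF-kappaB element (GGG, any 2 bases, TTTCC). The Stat2 window held the interferon response element on its minus strand, reading TTTCAGTTTC from 222 bases before the start, and a STAT6-type element, TTCCCTAGAA, from 210 bases before it. The Jak2 and Tyk2 windows held none of the 4. Among 12 windows of the 9 members, 2 held the interferon response element (Stat2 and the downstream start of Stat4), against 2.98% of all 32851 windows. GAS, STAT6-type and NF-kappaB letters occurred in 0, 1 and 0 member windows and in 7.02%, 5.85% and 1.41% of all windows. A match is a run of letters, not a measured binding site.

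Jak2 stood at 135, 133, 136 and 134 CPM in the LPS pool libraries, against 25.3, 24.5, 23.3 and 24.96 CPM in untreated libraries. The groups were far apart, at 5.48-fold (log2 2.46 ± 0.033 SE, adjusted p = 2.79e-57, edgeR). Jak2 is on the plus strand of chromosome 19 (29251803 to 29313095). Tyk2, whose kinase serves the interferon alpha/beta, interleukin-12 and interleukin-10 receptors, held 136, 140.3, 135 and 126 CPM in the pool, against 43.4, 41.5, 41.2 and 42.0 CPM in untreated cells. That is 3.20-fold (log2 1.68 ± 0.034 SE, adjusted p = 5.23e-48, edgeR), with pool replicate 4 the lowest of its group. Tyk2 lies on the minus strand of chromosome 9 (21104068 to 21131393).

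Stat3 encodes the main STAT downstream of interleukin-6 and interleukin-10. It was 2.55-fold higher in the LPS pool (log2 1.35 ± 0.026 SE, adjusted p = 3.94e-49, edgeR), at 257 ± 6.65 CPM against 101 ± 3.17 CPM in untreated cells (SD, n = 4 each), with no overlap. Jak1, the kinase gene shared by interferon, interleukin-6 and gamma-chain receptors, was 1.35-fold higher (log2 0.44 ± 0.026 SE, adjusted p = 5.49e-23). Its level was 174 ± 4.37 CPM in the pool and 129 ± 4.51 CPM in untreated cells (SD, n = 4 each, edgeR), and its log2 fold was 0.11 with library totals alone, beside an all-gene median of -0.36 on that scale. Stat3 is on the minus strand of chromosome 11 (100886806 to 100939594), and Jak1 on the minus strand of chromosome 4 (101151974 to 101265282).

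The 3 decreases were small. Stat5b was 1.18-fold lower in the LPS pool than in untreated cells (log2 -0.24 ± 0.051 SE, adjusted p = 2.94e-05, edgeR) and Stat5a 1.16-fold lower (-0.22 ± 0.081, adjusted p = 0.0137). STAT5A and STAT5B transmit GM-CSF, interleukin-3 and related signals. The Stat5a call was lost without LPS pool replicate 1 (adjusted p = 0.050), without untreated replicate 4 (0.0577) and in the 10 libraries without neural transcripts (0.0717). Stat6, the interleukin-4 and interleukin-13 STAT, stood at 173 to 188.5 CPM in the pool and 187 to 195.1 CPM in untreated cells, 1.05-fold lower in the pool, with overlapping libraries (adjusted p = 0.0126, edgeR). That call was lost without pool replicate 4 (adjusted p = 0.119), without untreated replicate 2 (0.0526) or 4 (0.0533), with DESeq2 (0.160), with size factors (0.125), with only both groups fitted (0.145) and in the 10 libraries (0.186).

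**Figure D1:**
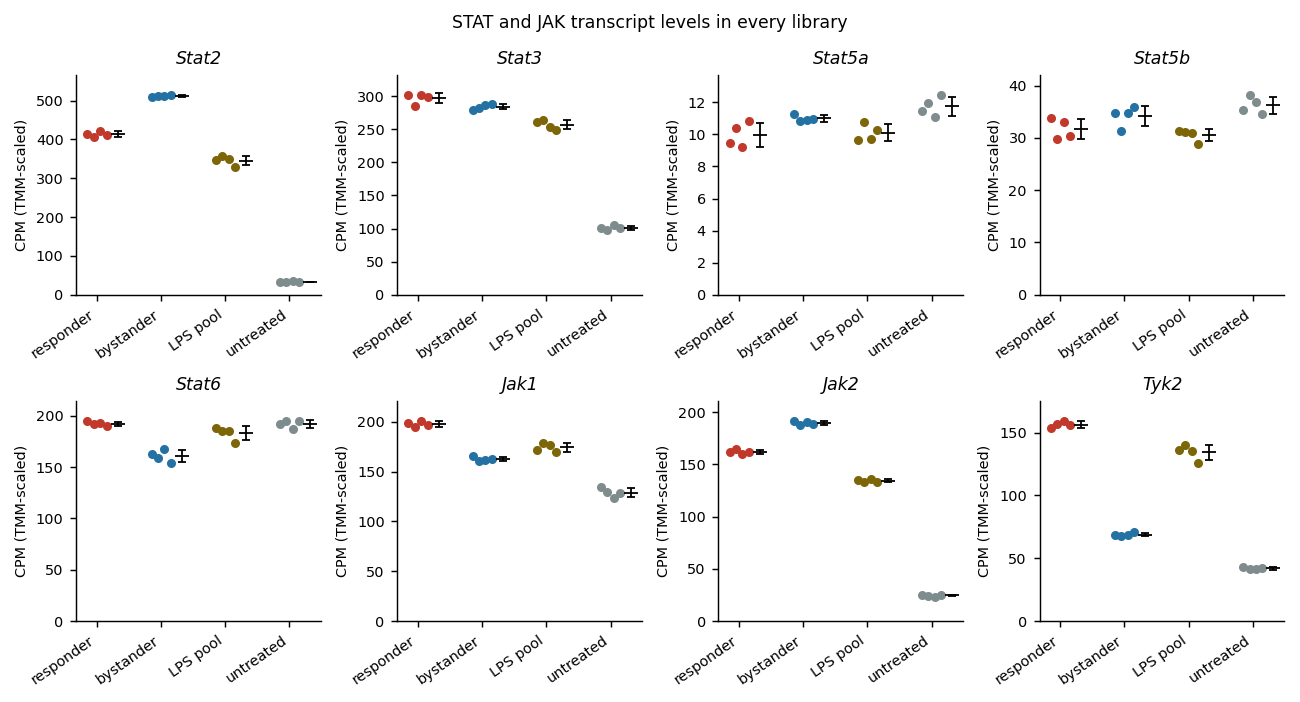
CPM with TMM scaling (vertical axis from 0) of the 8 tested members in each of the 16 libraries (points) by group, with mean and SD at the right of each group. Stat2 and Jak2 are highest in bystanders, while Tyk2 stands at 153 to 159 CPM in responders and 67.3 to 70.6 CPM in bystanders.

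Each sorted group was set against untreated cells, and these comparisons share the 4 untreated libraries with each other and with that of the pool. Of all genes 75% were called for responders against untreated cells, 36.5% higher and 38.5% lower (48.7% of calls higher, and 21.7% with library totals alone). For bystanders 67.1% were called, 34.1% higher and 32.9% lower (50.9% of calls higher, and 27.5% with library totals alone). In both, Stat2, Stat3, Jak1, Jak2 and Tyk2 rose. Stat2 was 12.5-fold higher in responders than in untreated cells (adjusted p = 4.22e-71, edgeR) and 15.5-fold higher in bystanders (adjusted p = 4.41e-73), where it ranked 118 from the highest. Jak2 was 6.61-fold higher in responders (adjusted p = 7.55e-61) and 7.73-fold higher in bystanders (adjusted p = 5.64e-63). Stat3 was 2.94-fold and Jak1 1.53-fold higher in responders, against 2.82-fold and 1.26-fold in bystanders, each over untreated cells.

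Tyk2 showed the widest spread between these folds among the 3 kinase genes. It was 3.72-fold higher in responders than in untreated cells (adjusted p = 7.17e-52, edgeR) but 1.64-fold higher in bystanders (adjusted p = 1.42e-26). In bystanders the members at least 2-fold above untreated cells were thus Stat2, Stat3 and Jak2 (7.51% of all genes), and in responders also Tyk2 (10.8% of all genes). Stat5a and Stat5b were lower in responders than in untreated cells, by 1.18-fold and 1.14-fold (adjusted p = 0.00529 and 0.000497, edgeR). In bystanders neither passed, with log2 differences from untreated cells of -0.10 (95% interval -0.25 to 0.05) and -0.08 (-0.17 to 0.02). With library totals alone both passed, at -0.29 and -0.27, beside an all-gene median of -0.18, and Stat5b also passed in the 10 libraries without neural transcripts (adjusted p = 0.046).

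**Figure D2:**
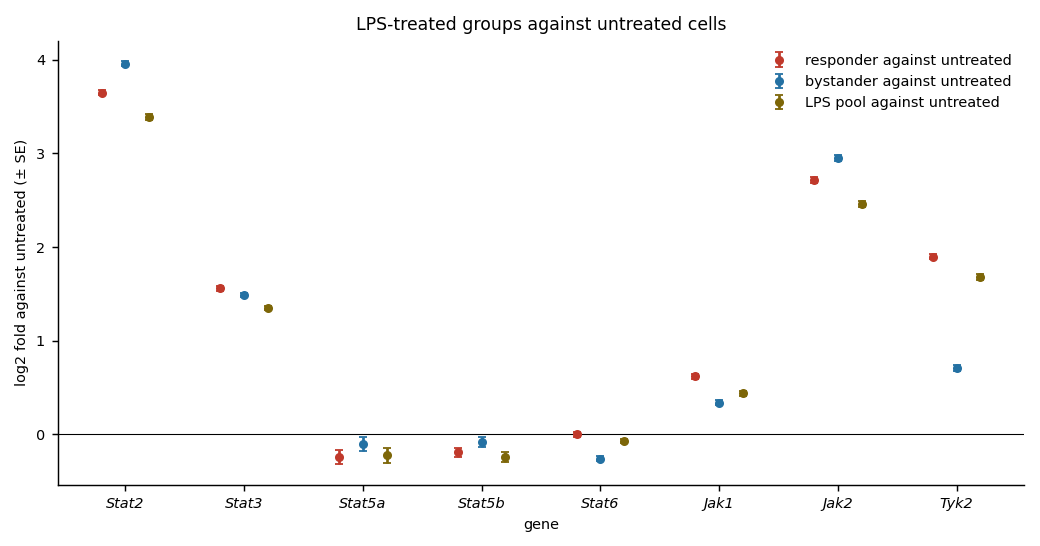
Log2 fold (vertical axis, with SE) of the 8 tested members in responders, bystanders and the LPS pool, each against untreated cells, from edgeR. Stat2 lies at 3.65, 3.96 and 3.39 in that order and Tyk2 at 1.90, 0.71 and 1.68.

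Between the gates the members split. In responders against bystanders 70% of all genes were called, 34.7% higher and 35.3% lower, and of the 8 members 7 were called: Tyk2, Jak1, Stat6 and Stat3 higher, Stat2, Jak2 and Stat5b lower. With 70% of all genes called, 7 of 8 is not a result about the members as a set. Of all calls 49.5% were higher, and 27.8% with library totals alone. The member median was -0.02 on the log2 scale and the all-gene median -0.01.

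Tyk2 was the member with the largest difference. Responder libraries held 153, 157, 159 and 156 CPM, against 68.5, 67.3, 68.8 and 70.6 CPM in bystander libraries. All 4 responder libraries were above 2 times every bystander library. The fold was 2.27 (log2 1.18 ± 0.030 SE, adjusted p = 1.02e-41, edgeR), and 5.82% of all genes were called at least 2-fold higher. It was 1.22 on the log2 scale in the 10 libraries without neural transcripts. With library totals alone it was 0.99, beside an all-gene median of -0.20.

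Jak1 and Stat6 followed Tyk2 by smaller amounts. Jak1 held 198.5, 195, 201 and 197 CPM in responders, against 166, 161, 162 and 163 CPM in bystanders, a 1.21-fold difference (adjusted p = 1.44e-15, edgeR). Stat6 held 194.5, 192, 193 and 189.6 CPM in responders, against 163, 159, 168 and 154.5 CPM in bystanders, a 1.19-fold difference (adjusted p = 1.76e-13). Neither gene's groups overlapped. With library totals alone the log2 folds were 0.09 and 0.07, both still past the threshold, beside an all-gene median of -0.20 on that scale.

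Stat2 and Jak2 went the other way. Stat2 held 414, 406, 423 and 411 CPM in responders, against 509, 512, 511 and 515.5 CPM in bystanders, 1.24-fold lower in responders (log2 -0.31 ± 0.021 SE, adjusted p = 1.42e-20, edgeR). Jak2 held 162, 164, 160.3 and 162 CPM in responders, against 192, 188, 191 and 189 CPM in bystanders, 1.17-fold lower (log2 -0.23 ± 0.024 SE, adjusted p = 1.61e-12). Neither gene's groups overlapped. With library totals alone the log2 folds were -0.50 and -0.42, beside an all-gene median of -0.20 on that scale.

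The smallest calls did not hold under every setting. Stat3 was 1.05-fold higher in responders (297 ± 7.79 against 284 ± 3.97 CPM in bystanders, SD, n = 4 each, adjusted p = 0.0106, edgeR), but lower with library totals alone, at -0.13 on the log2 scale beside an all-gene median of -0.20. Responder and bystander libraries of Stat3 overlapped. Stat5b was 1.08-fold lower in responders (adjusted p = 0.0401, edgeR), with overlapping libraries. That call was lost with DESeq2 (adjusted p = 0.0739), with size factors (0.0534) and with no filter on low counts (0.0798). It was also lost in the 10 libraries without neural transcripts (0.259). The same held without responder replicate 2 (0.188) or 4 (0.163) or bystander replicate 1 (0.0888), 3 (0.10) or 4 (0.184). Stat5a did not pass (log2 -0.14, 95% interval -0.30 to 0.02), although its libraries did not overlap, at 9.21 to 10.8 CPM in responders and 10.9 to 11.3 CPM in bystanders. It passed with library totals alone, at -0.33.

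**Figure D3:**
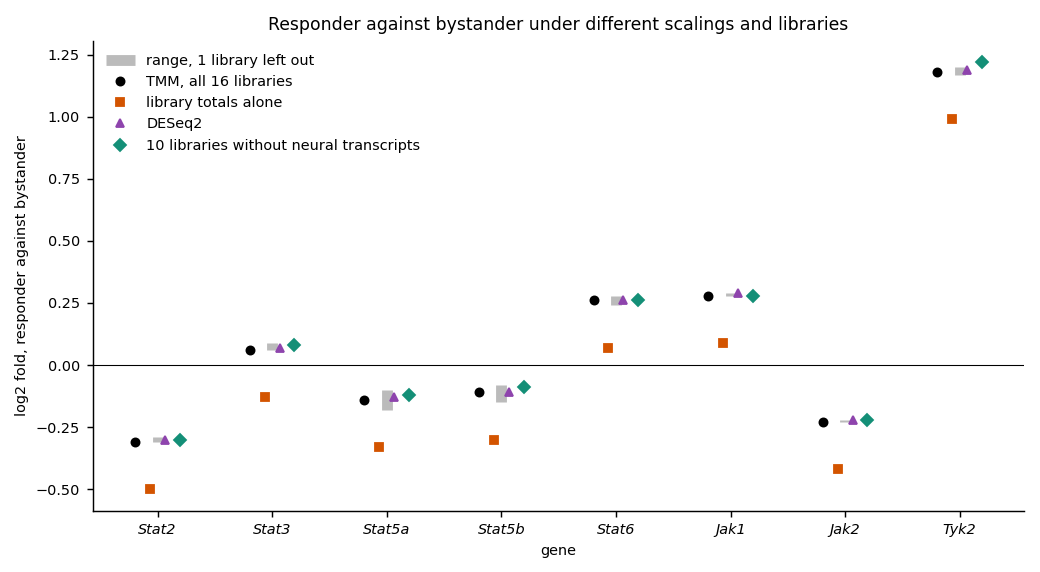
Log2 fold for responders against bystanders (vertical axis) of the 8 tested members with TMM scaling, with library totals alone, with DESeq2, and in the 10 libraries without neural transcripts. Grey bars span the values with each of the 8 responder and bystander libraries left out, and Stat3 alone lies on both sides of 0, at 0.06 with TMM and -0.13 with library totals.

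Against the ungated LPS pool, Stat2, Jak2 and Stat3 were higher in both sorted groups. Both comparisons share the 4 pool libraries. In responders against the pool 25.5% of all genes were called, 16% higher and 9.49% lower (62.7% of calls higher, and 30.6% with library totals alone). Of the 8 members 6 were higher and 0 lower (edgeR, also 0 lower with DESeq2 and 0 at an unadjusted p under 0.05). In bystanders against the pool 67% were called, 34.1% higher and 32.9% lower (50.9% of calls higher, and 68.4% with library totals alone), with 4 members higher and 3 lower. Stat2 was 1.20-fold higher in responders and 1.48-fold higher in bystanders than in the pool (adjusted p = 4.03e-15 and 7.04e-33, edgeR). Jak2 was 1.20-fold and 1.41-fold higher in the same comparisons (adjusted p = 6.09e-13 and 4.68e-26), and Stat3 1.16-fold and 1.11-fold (adjusted p = 1.00e-10 and 2.03e-07). In none of the 3 did pool libraries overlap with either sorted group, and all 6 calls were made with library totals alone as well. The share of all genes without overlap was not computed, in these or the other comparisons. Stat5a, not called in bystanders against the pool (adjusted p = 0.201, edgeR), did not overlap there either. The pool was collected after the sorted cells, and the part of collection order in these values cannot be told apart from that of the gate.

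For Tyk2, Jak1 and Stat6 the pool lay between the gates. Tyk2 was 1.16-fold higher in responders than in the pool (adjusted p = 1.13e-08, edgeR) and 1.95-fold lower in bystanders than in the pool (adjusted p = 4.27e-36). Jak1 was 1.13-fold higher in responders than in the pool (adjusted p = 5.22e-08), and 1.07-fold lower in bystanders than in the pool (adjusted p = 0.000494) but 0.03 above it on the log2 scale with library totals alone. Stat6 was 1.05-fold higher in responders than in the pool (adjusted p = 0.0373). That call was lost without responder replicate 1, 2 or 3 (0.0937, 0.0660 and 0.0780) or pool replicate 4 (0.196). It was also lost in the 10 libraries without neural transcripts (0.399), with DESeq2 (0.0582) and with size factors (0.0613). The same held with only both groups fitted (0.128) and with library totals alone (log2 0.01, adjusted p = 0.73). Stat6 was 1.14-fold lower in bystanders than in the pool (adjusted p = 8.89e-09, lost with library totals alone at 0.085). Stat5b was 1.12-fold higher in bystanders than in the pool (adjusted p = 0.00413), which was lost in the 10 libraries (0.346). Stat6 alone among the tested members had the same mean in responders and untreated cells, 192 CPM in both, with a 95% interval of -0.05 to 0.05 for the log2 difference (-0.38 with library totals alone, beside an all-gene median of -0.41). It lay 1.19-fold lower in bystanders than in untreated cells (adjusted p = 1.55e-13).

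Per kilobase of exon, the most abundant of the 6 STAT genes differed between LPS-treated and untreated cells, and the most abundant of the 3 kinase genes was another in bystanders than in the other groups. These levels are RPKM values, CPM divided by the exon length in kilobases of the GENCODE M21 gene. The annotation used for counting was not given, so the order of genes with close RPKM values depends on these lengths. Stat2 led the 6 STAT genes in all LPS-treated groups, at 94.0 ± 1.64 RPKM in responders, 116 ± 0.623 in bystanders and 78.5 ± 2.57 in the pool, and stood at 7.51 ± 0.231 RPKM in untreated cells (SD, n = 4 each). Stat6 led in untreated cells at 50.9 ± 0.979 RPKM, followed by Stat3 at 16.2 ± 0.508 RPKM. Stat3 was at 47.7 ± 1.25 RPKM in responders, where Stat6 was at 50.9 ± 0.542, and at 45.6 ± 0.638 RPKM in bystanders, where Stat6 was at 42.7 ± 1.47.

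Among Jak1, Jak2 and Tyk2, Jak1 was highest in responders (40.3 ± 0.524 RPKM), in the pool (35.5 ± 0.890) and in untreated cells (26.3 ± 0.920). In bystanders Jak2 was highest, at 37.7 ± 0.355 RPKM beside 33.2 ± 0.441 RPKM for Jak1 and 12.4 ± 0.242 for Tyk2. Ratios within a library do not depend on scaling between libraries. The ratio of Jak2 to Tyk2 was 1.11 to 1.17 in responders, 2.96 to 3.10 in bystanders, 1.05 to 1.18 in the LPS pool and 0.625 to 0.658 in untreated cells. The ratio of Stat2 to Stat3 was 1.94 to 2.01 in responders, 2.53 to 2.58 in bystanders, 1.87 to 1.95 in the pool and 0.449 to 0.484 in untreated cells. Both ratios were thus highest in bystanders and lowest in untreated cells, without overlap. These pairs were chosen after their values were seen, so the ratios are a description.

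**Figure D4:**
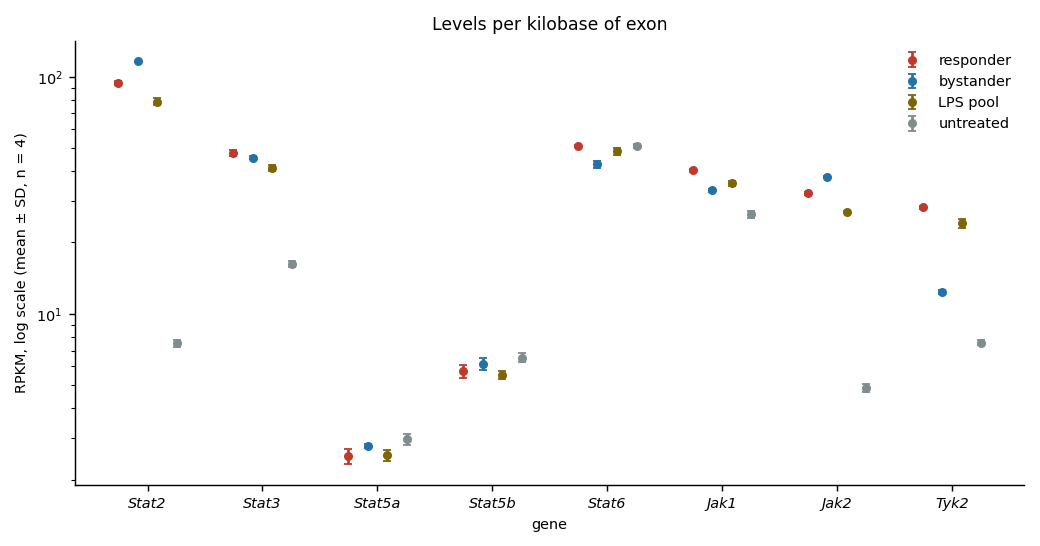
RPKM (log axis, mean and SD of 4 libraries) of the 8 tested members by group. Stat2 is the highest of the 8 in all LPS-treated groups, Stat6 in untreated cells, and Stat5a stays between 2.51 and 2.96 RPKM.

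**Figure D5:**
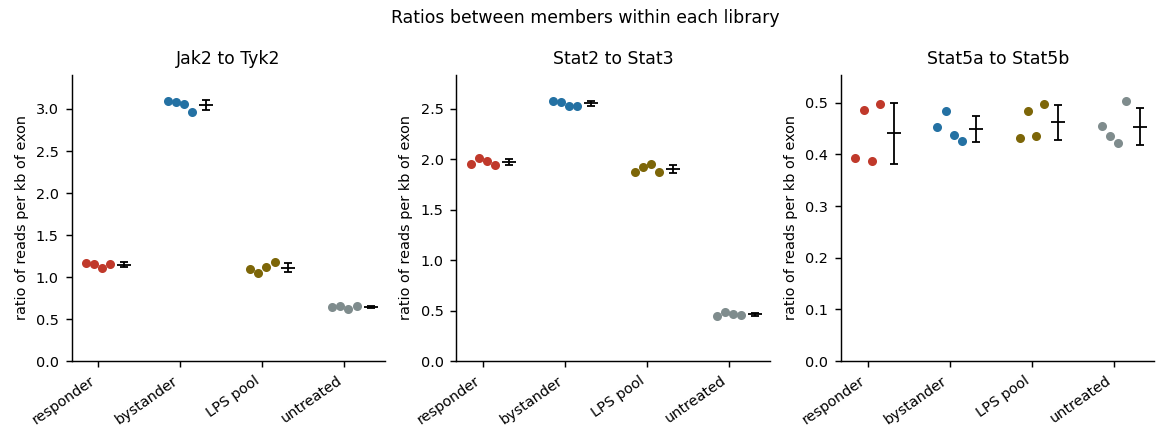
Ratio of reads per kilobase of exon between pairs of members in each library (points, vertical axis from 0), with mean and SD at the right of each group. Jak2 to Tyk2 averages 1.15 in responders and 3.05 in bystanders, while Stat5a to Stat5b averages 0.441 to 0.462 in every group.

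Stat5a and Stat5b kept nearly the same ratio to each other, at 0.441 ± 0.059 in responders, 0.450 ± 0.025 in bystanders, 0.462 ± 0.0333 in the pool and 0.454 ± 0.0361 in untreated cells (SD, n = 4 each). They are neighbours on chromosome 11. Stat5b (100780731 to 100859004) reads on the minus strand and Stat5a (100859351 to 100885169) on the plus strand, with 346 bases between their spans, and Stat3 follows Stat5a after another 1636 bases. The longest GENCODE transcripts of the pair share 608 stretches of 50 bases, 15.8% of those in Stat5a and 11.8% of those in Stat5b, so some reads could belong to either gene. No other pair of members shared a stretch of that length. Stat6 (chromosome 10, 127642955 to 127660987) overlaps Nab2, and Jak1 overlaps Raver2, which had 15877 and 24 reads in all.

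Stat4 (chromosome 1, 51987106 to 52107189, plus strand), the interleukin-12 STAT best known from T and NK cells, had almost no reads. It had 10 reads over all 16 libraries, at most 2 in any of them, with 3 in responders, 4 in bystanders, 2 in the pool and 1 in untreated cells. It did not pass the filter, and no fold is given.

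The genes whose profile over the 4 groups lay nearest to each member were found by the distance between group means of log2 CPM, each gene centred on its own mean, among 9553 genes, as a description. Nearest to Tyk2 was Nfkb1, an NF-kappaB subunit gene, with 323, 139, 269 and 83.8 CPM in responders, bystanders, pool and untreated cells (distance 0.041), and next Ptprj, a phosphatase gene (0.097). Nearest to Jak2 were Parp9, an ADP-ribosylation gene (320, 383, 269 and 50.2 CPM, distance 0.041), and Il15, a cytokine gene (distance 0.165). Stat2 had no neighbour as close, the nearest being Tap1, a peptide transporter gene of antigen presentation (distance 0.214), and Gm8995 (0.217). The distance was not scaled to the size of a gene's change, which among the tested members was largest for Stat2. Nearest to Stat3 were Rnf114, a ubiquitin ligase gene, and Entpd1, an ectonucleotidase gene (0.055 and 0.069). For Jak1 these were Ppp1r3b and Pign, for Stat6 Rad23b and Zfp574, for Stat5a Zmym3 and Tram1 and for Stat5b Ipo8 and Icmt, at distances of 0.006 to 0.026.

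Among other genes of the pathway, nearly all tested ligand genes were higher in responders than in bystanders. Receptor, inhibitor and partner genes changed in both directions, as did genes in general. Of 20 listed ligand genes of JAK-coupled receptors, 13 passed the low-count filter. Of these, 12 were higher and 1 lower in responders than in bystanders, and all 13 were higher in the pool than in untreated cells. Csf2, Ifnb1 and Il12b were low in bystanders (0.144, 0.0734 and 0.024 CPM) and in untreated cells (0.0595, 0.0257 and 0.0113 CPM). Such genes passed the filter through responders and the pool, which largely fixed their direction. Among all genes 34.7% were higher and 35.3% lower between the gates, and 34.1% and 37.8% in the pool, and the counts of each list are read against these shares. The ligand counts, partly fixed by the filter, are a description only. The growth factor genes Csf3 and Csf2 differed most, at 1290 ± 24.3 CPM in responders against 14.3 ± 13.6 CPM in bystanders for Csf3 and 11.3 ± 0.692 against 0.144 ± 0.135 CPM for Csf2 (SD, n = 4 each). Of 22 receptor genes 13 were higher and 9 lower in responders than in bystanders, with Csf3r, the granulocyte growth factor receptor gene, at 15.7 ± 0.854 against 3.03 ± 0.628 CPM and Il6ra, the interleukin-6 receptor gene, at 9.48 ± 0.314 against 25.4 ± 0.846 CPM. Of 21 inhibitor and phosphatase genes 11 were higher and 9 lower. Both genes with the largest difference encode proteins that block JAKs, and they moved in opposite directions: Socs3 was 281 ± 7.34 CPM in responders and 37.2 ± 3.58 CPM in bystanders, and Socs1 was 13.2 ± 0.461 CPM in responders and 80.2 ± 3.45 CPM in bystanders. Of 12 partner and cofactor genes 6 were higher and 5 lower in responders, with Ep300, a histone acetyltransferase gene, at 53.2 ± 1.31 against 119 ± 1.28 CPM and Kpna3, a nuclear import gene, at 192 ± 7.85 against 117 ± 0.941 CPM.

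Target lists of the STATs were described in the same way. All 20 STAT2-IRF9 targets were higher in responders, in bystanders and in the pool than in untreated cells. The list medians were 5.41, 4.74 and 5.26 on the log2 scale. Of all genes 36.5%, 34.1% and 34.1% were higher in these comparisons. Between the gates 11 were higher and 8 lower in responders, with Ifi44 at 37.9 ± 1.41 against 15.2 ± 0.394 CPM in bystanders and Isg20 at 399 ± 2.31 against 178 ± 3.81 CPM. Mx1, an antiviral GTPase gene added after its values were seen, went the other way, with responders at 195 ± 2.88 CPM and bystanders at 411 ± 6.32 CPM. For all target lists too, the shares over all genes between the gates are 34.7% higher and 35.3% lower. Among 13 STAT3 targets, responders were above bystanders for 8 and below for 4, with Myc, a growth regulator gene, at 14.9 ± 1.68 against 2.97 ± 0.181 CPM. Among 10 STAT5 targets these counts were 8 and 2, with Il1rn, the interleukin-1 receptor antagonist gene, at 6210 ± 58.0 against 1320 ± 28.8 CPM and Pim1, a kinase gene, at 258 ± 4.06 against 62.8 ± 3.76 CPM. Among 12 STAT6 targets they were 5 and 5, with the chemokine genes Ccl17 and Ccl22 at 32.5 ± 1.00 and 28.2 ± 1.26 CPM in responders, against 0.477 ± 0.423 and 0.870 ± 0.147 CPM in bystanders. Clec10a, a lectin gene added after its values were seen, was lower in responders, at 47.3 ± 2.42 CPM against 239 ± 3.98 CPM in bystanders. Retnla and Chil3, which interleukin-4 induces through STAT6 in mouse macrophages, had 0 CPM in every group. The list medians for responders against bystanders were 2.96 for ligands, 0.25 for receptors, 0.23 for inhibitors, 0.10 for partners, and 0.35, 0.45, 0.66 and -0.55 for STAT2-IRF9, STAT3, STAT5 and STAT6 targets, beside -0.01 for all genes. In the pool against untreated cells, 15 receptor genes were higher and 6 lower, as were 13 and 5 inhibitor genes, 6 and 2 partner genes, 11 and 1 STAT3 targets, 10 and 0 STAT5 targets and 6 and 2 STAT6 targets, where 34.1% of all genes were higher and 37.8% lower. With library totals alone, more inhibitor genes were lower (10) than higher (9) in responders than in bystanders, as were partner genes (6 and 4), STAT6 targets (6 and 3), and in the pool inhibitors (11 and 9) and partners (6 and 4). The receptor counts were then 10 and 10 between the gates. Socs2, Socs3, Pim1, Cish, Il4ra and Osm stand on more than 1 list, and many listed targets also respond to other pathways.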

How the data were processed

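RNA was sequenced from 16 libraries, and the authors deposited their raw read counts by Entrez gene in 1 table. The tools named in the submitters' processing notes are featureCounts 2.1.1, HISAT2 2.2.2, fastp 1.1.0 and cutadapt 3.7, and the build is GRCm38 (mm10). Annotation, strandedness and handling of multi-mapping reads were not given in the sources used here. Of 27179 identifiers 25275 matched a RefSeq symbol, and the other 1904 (0.399% of counts) stayed in the tests. Another 3 columns were empty, and 0 belonged to other samples. Per the labels all RNA integrity numbers exceeded 7.1.

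Counts were filtered by filterByExpr, scaled by TMM and fitted with edgeR 4.0.16 (R 4.3.3, robust quasi-likelihood, 1 mean per group over all 16 libraries, no covariate). Tests were two-sided F tests with Benjamini-Hochberg adjustment over 12589 genes, called at 0.05. Every adjusted p is from edgeR unless another tool is named. Standard errors are the absolute log2 fold divided by the root of F, and 95% intervals are the log2 fold plus or minus 1.96 SE. DESeq2 1.42.0 was an alternative. All 24 replicate pairs differed beyond sampling noise (chi-square over degrees of freedom 1.61 to 3.12).

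The members, lists and tests were chosen with earlier results of these data known. Listed genes named with values are the 2 per list with the largest responder-to-bystander fold, at least 5 CPM and no overlap, and the 2 genes nearest to each member. Ratios, Retnla, Chil3, Mx1 and Clec10a were chosen after their values were seen. Promoter windows come from RefSeq (GRCm38.p6).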

Additional observations from a re-analysis of the deposited data

Results flagged for a closer look

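Of 32 sets of 4 libraries (8 members in 4 groups), 1 had a library far from the rest: Stat5b stood at 28.9 CPM in LPS pool replicate 4, and at 31.0 to 31.3 CPM in the other 3 pool libraries. Chance flags about 1 in 20 such sets. The same library held the most reads of the 5 neuronal genes, 21.1 CPM in sum, and their part in this value was not tested. Without it Stat5b was still lower in the pool than in untreated cells.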

How the results depend on the processing

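Of 768 values of single members (8 members, 6 comparisons, 16 alternatives each), 707 kept their direction and their side of the threshold. All 288 values of Stat2, Jak2 and Tyk2 did, as did all 240 of Stat2, Stat3, Jak1, Jak2 and Tyk2 against untreated cells. Stat5a rests on 146 to 299 reads per library and Stat5b on 410 to 895, which limits their small differences. The 2 alternatives set by neural transcripts were chosen after seeing the data. In the 6 libraries, responders and untreated cells have 1 library each, which is assumed to vary like the others, so a call lost there says nothing of neural transcripts.

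With library totals alone, genes called higher and lower numbered 2580 and 6695 in responders against bystanders (4364 and 4449 with TMM), 2216 and 8027 in the LPS pool (4292 and 4757), 2286 and 8238 in responders (4598 and 4849) and 2491 and 6576 in bystanders (4298 and 4147), each against untreated cells. They numbered 1073 and 2438 in responders against the pool (2010 and 1195), and 2755 were lower in bystanders against the pool (4142). Members called lower then numbered 5 in responders against bystanders, 3 in bystanders against untreated cells and 1 in bystanders against the pool, where TMM gave 3, 1 and 3. The log2 fold of Stat3 turned to -0.13 in responders against bystanders. That of Jak1 turned to 0.03 in bystanders against the pool, and that of Stat5b to -0.0029 in responders against the pool. Which of the scalings lies nearer to the levels per cell was not tested.

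In the 10 libraries, members called lower numbered 1 in the pool and 2 in bystanders, each against untreated cells, and Stat5b turned to -0.0034 in responders against the pool. In the 6 libraries they numbered 1 in the pool and 0 in responders against untreated cells, Stat5b turned to 0.01 in bystanders against untreated cells, and 662 and 205 genes were higher and lower in responders against the pool. Stat6 in responders against untreated cells, not called, was 0.02 with DESeq2 and with its size factors, 0.01 with only both groups fitted, 0.03 in the 6 libraries, and -0.01 to 0.01 with 1 library left out. With 1 library left out, members lower in the pool than in untreated cells numbered 1 to 3, and Stat5a in responders against the pool ran from -0.06 to 0.02.

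Replicate numbers gave little sign of pairing. Of 24 same-numbered pairs, 1 had a correlation of deviations over 0.1 (range -0.0168 to 0.175), and 6 of 16 libraries correlated best with their own number. That pair was bystander and LPS pool replicate 3, both among the 6 libraries with the neuronal genes. The labels do not say whether libraries of the same number shared a culture or day. With a replicate block, 4356 genes were higher and 4451 lower in responders against bystanders, and no count of members called changed.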
